A study of Homo sapiens with 6 samples.

Results

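The collagens and the enzymes that modify them were examined in the human cell line KYSE150, an established line of esophageal squamous cell carcinoma (ESCC). The members were the protein-coding genes with a collagen chain symbol, leaving out COL28A1, together with the catalytic subunits of collagen prolyl 4-hydroxylase (P4HA1 to P4HA3), the lysyl hydroxylases (PLOD1 to PLOD3), the lysyl oxidases (LOX and LOXL1 to LOXL4) and SERPINH1, the collagen chaperone. This gave 55 genes, 43 collagen chains and 12 enzymes or chaperone, among 67140 gene identifiers. Bulk polyA RNA-seq was compared between 3 samples carrying a control short hairpin RNA (shCtrl) and 3 samples carrying a hairpin against the lncRNA AC007128.1 (shAC007128.1), to ask which genes change when this lncRNA is targeted. All 6 samples came from the same line, which was grown at 37 °C in RPMI 1640 with fetal bovine serum. By the study's methods, stable lines were made with lentivirus and puromycin. Each group rests on 1 hairpin, and effects of the hairpin, of selection and of the lncRNA cannot be told apart. The labels do not say whether the 3 samples of a group came from separate cultures, so the p-values measure the spread between these samples, which may be technical.

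Collagens are trimers of alpha chains that wind into a triple helix in the endoplasmic reticulum. Prolyl hydroxylation stabilizes the helix, lysyl hydroxylation prepares crosslink and sugar attachment sites, the chaperone HSP47 (SERPINH1) holds the folded trimer on its way out, and lysyl oxidases crosslink the secreted molecules. Squamous epithelial cells rest on a basement membrane whose network is built of type IV collagen. They anchor to it through the transmembrane collagen XVII of hemidesmosomes and through anchoring fibrils of type VII collagen, whereas the fibrillar collagens of the stroma come mainly from fibroblasts.

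Depth ranged from 55764405 to 78610457 counts per sample, and the shCtrl samples were the deeper group. Levels are given as CPM after TMM scaling (each count divided by its scaled library total), on which 3 counts correspond to 0.0373 to 0.0546 CPM. The targeted gene AC007128.1 was at 0.943, 0.41 and 0.781 CPM in shCtrl and at 0.32, 0.674 and 0.258 CPM in shAC007128.1. The groups overlapped, and its log2 fold change of -0.77 (SE 0.51) did not pass edgeR's quasi-likelihood test (Benjamini-Hochberg adjusted p = 0.271). Leaving out 1 sample at a time gave -1.29 to -0.51. A fall in the targeted RNA was therefore not detected in these counts. By qPCR, a separate measure, the study reported that its hairpin lowered AC007128.1 RNA. Samples are grouped by their titles throughout, because the protocol texts of the labels are the same for all 6 samples and name both hairpins, so neither those texts nor the targeted RNA gives a further check of the groups. The squamous epithelial markers listed for this check were all above 1 CPM (7 of 7), with a summed level of 1645 to 1694 CPM in shCtrl and 2538 to 3093 CPM in shAC007128.1, and KRT14 and KRT6A were called higher (log2 fold changes 2.28 and 2.46). Of the 7 fibroblast markers, DCN, PDGFRA, FAP and POSTN were at or near 0, and the summed level was 1.18 to 2.60 CPM in shCtrl and 4.48 to 5.57 CPM in shAC007128.1. Within this list LUM was called higher (mean 1.07 and 4.71 CPM, log2 fold change 2.14, adjusted p = 0.00193) and PDGFRB was called lower (mean 0.470 and 0.154 CPM, log2 fold change -1.60, adjusted p = 0.0474). The 4 endothelial markers summed to 2.12 to 3.11 CPM and 0.302 to 2.02 CPM. Of the 3 leukocyte markers, CD68 made up nearly all of 59.1 to 68.0 CPM in shCtrl and 14.5 to 23.8 CPM in shAC007128.1, and CD68 was called lower (log2 fold change -1.87), while the pan-leukocyte PTPRC was near 0. Whether these shifts have a part in the collagen results was not tested. All 6 samples are of the same cell line. In bulk RNA, a change in how many of its cells express a gene and in RNA per cell cannot be told apart.

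Of the 55 members, 30 had a mean above 1 CPM in at least 1 group, 19 collagens and 11 enzymes or chaperone. This was 54.5% of the members, beside 60.8% of 19892 protein-coding genes. In shCtrl 29 members were above 1 CPM, and in shAC007128.1 27 were. The 25 members that stayed at or below 1 CPM were 24 collagens and P4HA3, and no sample of any of them exceeded 0.884 CPM. The filter on low counts kept 38 members for testing, and the 17 left out were P4HA3 and 16 collagens whose highest count in any sample was 27.

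Against this background, a called gene is one with an adjusted p of at most 0.05 and at least a 2-fold difference. Among the members 4 rose and 9 fell by this rule, and over all 19254 genes tested 15.7% were called, 5.57% higher and 10.1% lower. Those that rose were COL4A1, COL4A5, COL7A1 and COL9A2, and those that fell were COL6A1, COL6A3, COL10A1, COL11A1, COL11A2, COL13A1, COL20A1, LOXL1 and LOXL4. COL6A3, COL10A1 and COL11A1 had few or no counts in shAC007128.1 and passed the filter through shCtrl, where they were higher. With at least 10 counts required in every sample they were not tested, and 6 members were called lower, beside 1519 of all genes. By the adjusted p alone, 10 members were higher and 11 lower, beside 40.8% of all genes (21% higher and 19.8% lower), and 17 of the 38 tested did not pass. The median log2 fold change of the tested members was 0.037, beside -0.024 for all genes. The 2 groups did not overlap for 27 of the 38, beside 55.2% of all genes tested. Like COL6A3, COL10A1 and COL11A1, the members COL5A1 and COL26A1 passed the filter through shCtrl, where they were higher. These members are among those without overlap, which the filter itself favoured, so the count is a description only. Both directions occurred within the collagens, while the 2 enzymes called were both lower.

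**Figure D1:**
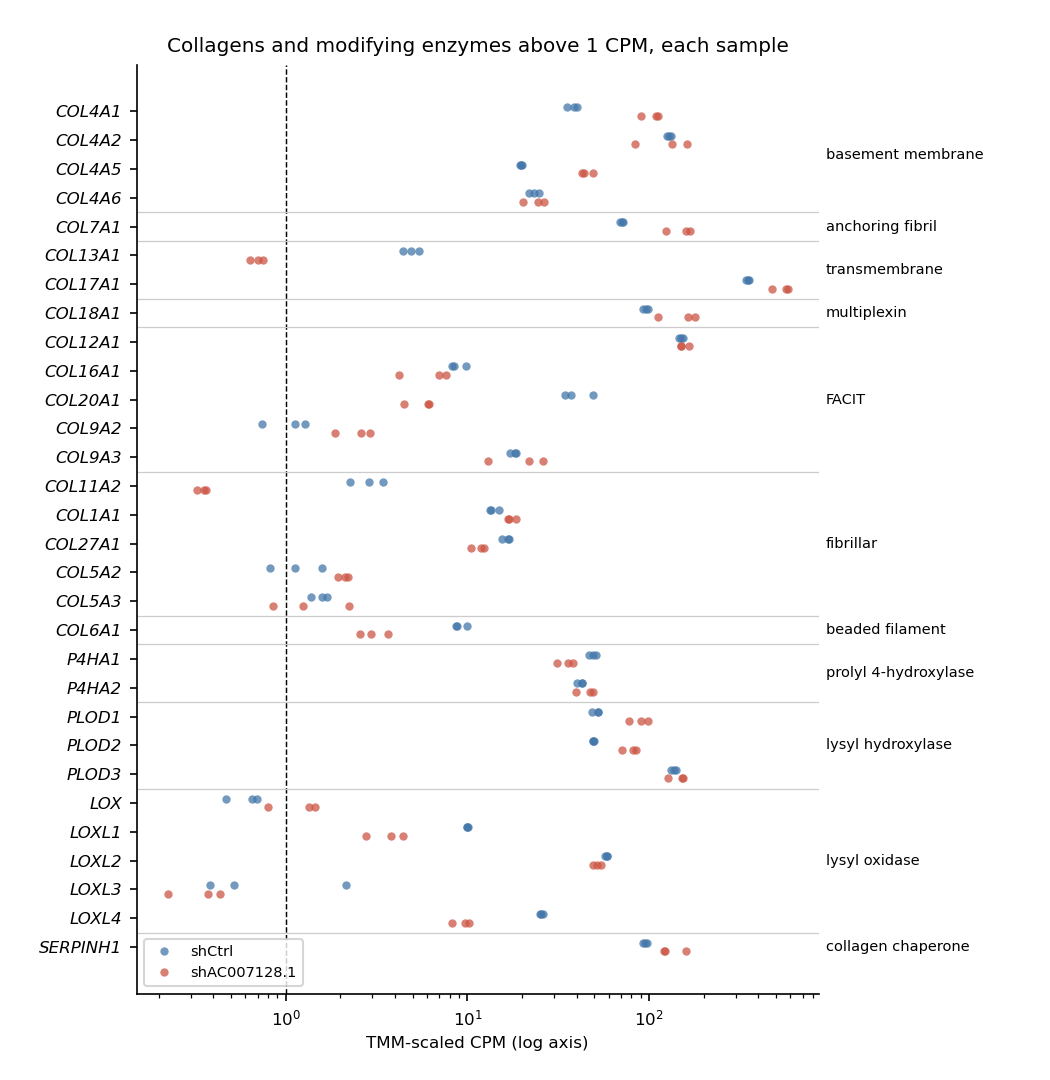
TMM-scaled CPM (log axis) of the 30 members with a mean above 1 CPM in either group, 1 point per sample, blue for the 3 shCtrl and red for the 3 shAC007128.1 samples, grouped by role. The red points of COL4A1, COL4A5 and COL7A1 lie above all blue points, and those of COL20A1, COL13A1, COL11A2, COL6A1, LOXL1 and LOXL4 lie below.

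The chains of the basement membrane network were uneven. COL4A1 and COL4A5 rose while COL4A2 and COL4A6, their partners in assembly, did not pass the test. Type IV collagen chains assemble in fixed combinations, with 2 copies of alpha1 and 1 of alpha2 in the network found in every basement membrane, and with alpha5 joining alpha6 in epithelial ones. COL4A1 (chromosome 13, 110148963 to 110307157, hg38) was at 38.8, 40.2 and 35.5 CPM in shCtrl and at 111, 109 and 90.4 CPM in shAC007128.1. Every shAC007128.1 sample lay above every shCtrl sample, and the log2 fold change was 1.44 (SE 0.11, adjusted p = 9.44e-05). COL4A5 (chromosome X, 108439838 to 108697545), whose loss causes X-linked Alport syndrome, was at 19.6, 19.5 and 19.9 CPM in shCtrl and at 42.9, 49.3 and 44 CPM in shAC007128.1. The groups did not overlap, and the log2 fold change was 1.20 (SE 0.091, adjusted p = 1.01e-04).

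COL4A2 gave 125, 132 and 129 CPM in shCtrl and 133, 162 and 83.5 CPM in shAC007128.1. The shAC007128.1 samples lay on both sides of the shCtrl samples, with replicate 3 lowest, and the log2 fold change of -0.030 (SE 0.21) did not pass (adjusted p = 0.924). Without that replicate it was 0.19. COL4A6 gave 24.6, 23.4 and 21.8 CPM in shCtrl and 26.4, 24.4 and 20.1 CPM in shAC007128.1. Its groups overlapped as well (log2 fold change 0.023, SE 0.13, adjusted p = 0.9). The other chains of the family, COL4A3 and COL4A4, which form the network of the glomerulus with alpha5, were below the filter. COL4A3 had at most 13 counts in a sample, and COL4A4 had 12, 0 and 27 counts in shCtrl and 0 in every shAC007128.1 sample.

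The genes of each type IV pair lie head to head, running apart from a short shared stretch of DNA. Part of the sequence between the starts is shown for the pairs that were tested. Of these, COL4A1 and COL4A5 passed the test and COL4A2 and COL4A6, transcribed away from them, did not. COL4A4 and COL4A3, 418 bases apart, were not tested. In RefSeq (GRCh38.p14) the starts of COL4A1, on the minus strand, and COL4A2, on the plus strand, are 126 bases apart, at 110307157 and 110307284. The start of COL4A5 at 108439838 is separated by 379 bases from one start of COL4A6 at 108439458 and by 1415 bases from another at 108438422. Plus-strand sequence next to the COL4A1 start (chr13:110307158-110307257) and before the COL4A5 start (chrX:108439588-108439837) is given below in lower case. Capitals mark the CCAAT box (CCAAT, or ATTGG on the other strand) and the GC box (GGGCGG, or CCGCCC), both common in proximal promoters.
COL4A1-COL4A2: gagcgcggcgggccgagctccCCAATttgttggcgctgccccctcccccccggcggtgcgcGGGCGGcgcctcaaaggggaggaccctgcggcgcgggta
COL4A6-COL4A5: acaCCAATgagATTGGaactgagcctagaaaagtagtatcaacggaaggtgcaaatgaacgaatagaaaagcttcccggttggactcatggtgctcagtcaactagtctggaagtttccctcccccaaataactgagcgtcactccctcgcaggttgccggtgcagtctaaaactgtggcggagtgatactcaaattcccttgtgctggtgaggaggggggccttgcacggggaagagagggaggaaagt
The 100 bases of the first window had a GC content of 78%, with 1 CCAAT box and 1 GC box. The 250 bases of the second had a GC content of 51.2%, with 2 CCAAT boxes on opposite strands and no GC box. Neither window reaches from start to start, so these counts are those of the windows only. Neither window held TATAAA or the AP-1 motif TGANTCA on either strand. For scale, among 34943 RefSeq promoters of 300 bases, 34.6% held CCAAT, 44.9% GGGCGG, 11.6% TATAAA and 7.72% TGANTCA on either strand. A match in letters is a description and not a bound site.

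The ratio between partner chains of 1 sample does not depend on the library scaling. The count of COL4A1 over that of COL4A2 was 0.311, 0.304 and 0.274 in shCtrl and 0.838, 0.674 and 1.08 in shAC007128.1. All 3 shAC007128.1 samples exceeded all shCtrl samples, by a mean log2 difference of 1.52, or 2.87-fold. The count of COL4A5 over COL4A6 was 0.796, 0.836 and 0.916 in shCtrl and 1.62, 2.02 and 2.19 in shAC007128.1, a mean log2 difference of 1.18, or 2.27-fold. This ratio was below 1 in each shCtrl sample and above 1 in each shAC007128.1 sample. For each ratio the exact two-sided permutation test gave p = 0.1, the smallest that 3 against 3 samples allow, and 0.114 after adjustment over the 8 pairs of partner chains or paralogous enzymes that could be compared, so no ratio could pass. The canonical transcripts of the 4 genes are of similar length (6540 and 6446 bases for COL4A1 and COL4A2, 6531 and 6685 for COL4A5 and COL4A6). Per kilobase of these, mean levels of COL4A1 and COL4A2 were 5.84 and 20.0 CPM in shCtrl and 15.9 and 19.6 CPM in shAC007128.1. This length was chosen after the data were seen. Per kilobase of the union of exons they were 2.60 and 6.69 CPM in shCtrl and 7.07 and 6.55 CPM in shAC007128.1. Which of the chains was higher in shAC007128.1 thus depends on the length used.

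**Figure D2:**
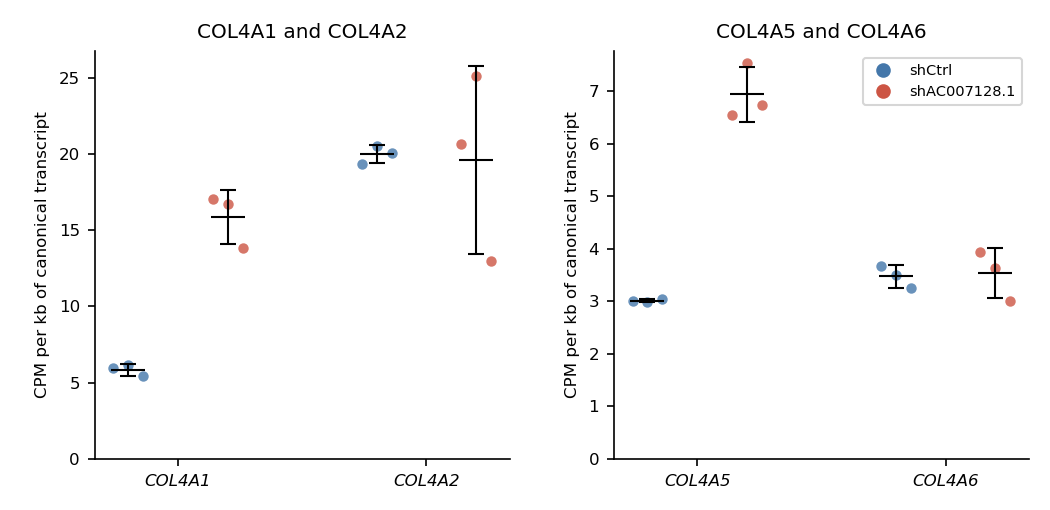
CPM per kilobase of canonical transcript for COL4A1 and COL4A2 (left) and COL4A5 and COL4A6 (right), 1 point per sample, with the mean and SD of 3 samples (bars). COL4A1 and COL4A5 are higher in every shAC007128.1 sample, and COL4A2 and COL4A6 overlap between the groups, COL4A2 with a wide spread in shAC007128.1.

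Among the collagens that link squamous cells to their matrix, COL7A1 rose more than 2-fold and COL17A1 and COL18A1 by less. COL7A1 (chromosome 3, 48564073 to 48595329), the only component chain of anchoring fibrils, was at 69.3, 71.7 and 71.3 CPM in shCtrl and at 159, 168 and 124 CPM in shAC007128.1. The groups did not overlap, and the log2 fold change was 1.09 (SE 0.12, adjusted p = 4.44e-04). COL17A1, the hemidesmosomal collagen also known as BP180, was at 353, 348 and 340 CPM in shCtrl and at 581, 565 and 474 CPM in shAC007128.1. All shAC007128.1 samples were higher, with a log2 fold change of 0.64 (SE 0.086, adjusted p = 0.00109). Per kilobase it was the highest of all collagen genes in both groups, at 49.7 and 77.3 CPM per kilobase of its union of exons. COL18A1, the basement membrane multiplexin whose C-terminal fragment is endostatin, was at 96.3, 92.6 and 98.1 CPM in shCtrl and at 180, 163 and 112 CPM in shAC007128.1. It was higher in every shAC007128.1 sample (log2 fold change 0.67, SE 0.16, adjusted p = 0.0151), but without shCtrl replicate 1 or 2 the adjusted p was 0.0501 and 0.0564. In addition, 18.5% of the exonic bases of COL18A1 overlap other genes, among them SLC19A1 on the other strand. SLC19A1 was itself higher (mean 48.7 and 78.1 CPM, log2 fold change 0.68, adjusted p = 0.00583). Whether counting used strand is not given in the sources used here. In COL4A2, COL7A1, COL17A1 and COL18A1 alike, shAC007128.1 replicate 3 was the lowest of its group. This was not particular to these genes. The same sample was also lowest for other members, COL4A1, COL9A3, LOXL4 and PLOD1 among them, and highest for COL12A1 and PLOD2.

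The other transmembrane and multiplexin members were low or fell. COL13A1 (chromosome 10, 69801880 to 69964275), a transmembrane collagen of focal adhesions, was at 5.44, 4.44 and 4.92 CPM in shCtrl and at 0.747, 0.637 and 0.705 CPM in shAC007128.1. Every shAC007128.1 sample was several fold below every shCtrl sample, and the log2 fold change was -2.82 (SE 0.19, adjusted p = 7.04e-05), 7.06-fold lower. It dropped below 1 CPM in shAC007128.1. COL15A1, the other multiplexin, was at or below 0.437 CPM in every sample and did not pass (log2 fold change 0.28, adjusted p = 0.735). COL23A1, a transmembrane collagen below the filter, had 8, 4 and 9 counts in shCtrl and 0 in all shAC007128.1 samples.

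The FACIT collagens, which decorate the surface of fibrils, held a strong fall beside an abundant member with no passed test. COL20A1 (chromosome 20, 63293186 to 63334851) was at 34.6, 37.3 and 49.2 CPM in shCtrl and at 6.07, 6.12 and 4.47 CPM in shAC007128.1. The groups were far apart (log2 fold change -2.86, SE 0.19, adjusted p = 6.47e-05), a 7.27-fold lower level. Per kilobase of canonical transcript it went from 5.02 to 0.690 CPM. COL12A1, which binds type I collagen fibrils, was at 150, 153 and 145 CPM in shCtrl and at 150, 149 and 165 CPM in shAC007128.1. Its groups overlapped (log2 fold change 0.050, SE 0.071, adjusted p = 0.612).

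COL9A2 and COL9A3 encode chains of type IX collagen, known from cartilage. COL9A2 was at 1.12, 1.28 and 0.737 CPM in shCtrl and at 2.60, 2.89 and 1.86 CPM in shAC007128.1. The groups did not overlap, and it rose with a log2 fold change of 1.22 (SE 0.29, adjusted p = 0.0133). COL9A3 was at 17.1, 18.2 and 18.5 CPM in shCtrl and at 21.9, 26.1 and 13 CPM in shAC007128.1, with replicate 3 below all shCtrl samples. It did not pass (log2 fold change 0.18, adjusted p = 0.580), and without that replicate it did (0.41, adjusted p = 0.0263). The third chain of the trimer, COL9A1, had 0, 5 and 0 counts in shCtrl and none in shAC007128.1. COL16A1 was at 9.79, 8.22 and 8.48 CPM in shCtrl and at 7.65, 6.97 and 4.20 CPM in shAC007128.1, without overlap but not past the test (log2 fold change -0.49, adjusted p = 0.136). COL14A1, COL19A1, COL21A1 and COL22A1 had at most 9 counts in any sample, COL19A1 and COL22A1 none at all.

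The fibrillar collagens, the tensile fibers of the stroma, were low in these cells. Of 11 members 5 were above 1 CPM and 8 were tested. COL11A2, a minor fibrillar chain of cartilage (chromosome 6, 33162681 to 33192499), was at 2.26, 2.87 and 3.42 CPM in shCtrl and at 0.356, 0.364 and 0.327 CPM in shAC007128.1. The groups were widely separated, and it fell by 3.02 on the log2 scale (SE 0.26, adjusted p = 1.57e-04), 8.13-fold lower. COL11A1, its partner in type XI collagen, was at 0.396, 0.448 and 0.177 CPM in shCtrl and at 0.0712, 0.0728 and 0.0688 CPM in shAC007128.1 (log2 fold change -2.24, SE 0.61, adjusted p = 0.0226). This call rests on few counts and was not made by limma-voom (adjusted p = 0.0571). It was also lost without any 1 sample except shCtrl replicate 3 (adjusted p up to 0.102).

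COL27A1, a fibrillar chain of cartilage, was at 16.9, 15.4 and 16.7 CPM in shCtrl and at 12.4, 11.9 and 10.5 CPM in shAC007128.1. It was lower in all shAC007128.1 samples (log2 fold change -0.50, SE 0.12, adjusted p = 0.0126), though not without shCtrl replicate 1 (adjusted p = 0.0523). COL1A1, the alpha1 chain of type I collagen, was at 13.3, 13.6 and 14.9 CPM in shCtrl and at 16.8, 18.6 and 17.0 CPM in shAC007128.1, higher without overlap but by little (log2 fold change 0.33, SE 0.11, adjusted p = 0.0462). It did not pass without any 1 sample except shAC007128.1 replicate 3 (adjusted p up to 0.152). COL1A2, which supplies the other chain of the usual type I heterotrimer, had 0, 0 and 4 counts in shCtrl and 0 in each shAC007128.1 sample. Likewise COL3A1 had 16, 0 and 4 counts and COL2A1 had 20, 4 and 6 counts in shCtrl, and neither had any in shAC007128.1.

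The chains of type V collagen, which sets fibril width, did not pass the test. COL5A2 was at 0.82, 1.12 and 1.59 CPM in shCtrl and at 2.21, 1.93 and 2.13 CPM in shAC007128.1, without overlap (log2 fold change 0.83, adjusted p = 0.0505). Its side of the threshold changed with the method, with an adjusted p of 0.0370 by DESeq2, 0.0339 by limma-voom and 0.0267 without shCtrl replicate 3. COL5A3 was at 1.38, 1.69 and 1.59 CPM in shCtrl and at 0.854, 2.22 and 1.24 CPM in shAC007128.1 (log2 fold change -0.11, adjusted p = 0.827), its groups overlapping. COL5A1 was at or below 0.314 CPM in every sample (log2 fold change -2.13, adjusted p = 0.118), and COL24A1 at or below 0.692 CPM (1.42, adjusted p = 0.0976).

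Both tested chains of type VI collagen, the beaded filament beside basement membranes, were lower. COL6A1 (chromosome 21, 45981770 to 46005050) was at 8.82, 8.65 and 9.89 CPM in shCtrl and at 2.95, 3.68 and 2.56 CPM in shAC007128.1. The groups were well apart, and it fell by 1.57 on the log2 scale (SE 0.18, adjusted p = 5.59e-04), 2.98-fold lower. COL6A3, the long alpha3 chain, was at 0.82, 0.497 and 0.884 CPM in shCtrl and had no count in any shAC007128.1 sample. It passed edgeR's test (adjusted p = 0.00143), but entered it through shCtrl, where it was higher. With at least 10 counts in every sample or with counts divided by 4 it was not tested. Set against a floor of 3 counts per library it was at least 13.8-fold lower. Low counts pile up at multiples of 4, which this floor does not allow for, so the bound is rough. COL6A2, which neighbours COL6A1 and completes the trimer, had 4, 6 and 0 counts in shCtrl and none in shAC007128.1, and COL6A5 and COL6A6 had at most 15 counts in a sample.

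The remaining low members were of the hexagonal network class and COL26A1. COL10A1, the collagen of hypertrophic cartilage, was at 0.56, 0.547 and 0.413 CPM in shCtrl and at 0.178, 0.0364 and 0.0516 CPM in shAC007128.1. The groups did not overlap (log2 fold change -2.49, SE 0.65, adjusted p = 0.0193), but the call was lost without shCtrl replicate 1 or 2 or shAC007128.1 replicate 2 or 3 (adjusted p 0.0501 to 0.0676). COL8A2 was at or below 0.382 CPM (log2 fold change 0.34, adjusted p = 0.762), and COL8A1 had 4 counts in each of 2 shAC007128.1 samples and 0 elsewhere. COL26A1 was at or below 0.287 CPM, with 0 counts in 2 shAC007128.1 samples (adjusted p = 0.0622). COL25A1, a transmembrane collagen, had 5 counts in 1 shCtrl sample and none elsewhere.

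Summed over the 43 chains, collagen RNA was 995 ± 2.85 CPM in shCtrl and 1369 ± 170 CPM in shAC007128.1 (SD, n = 3 each). As a share of the summed level per kilobase of the union of exons, the transmembrane class, nearly all COL17A1, was largest in both groups, at 48.5% ± 0.885 and 52.7% ± 1.49 (SD, n = 3 each). The FACIT share was 16% ± 0.556 in shCtrl and 9.69% ± 0.509 in shAC007128.1, and the anchoring fibril share 6.15% ± 0.118 and 9.17% ± 0.350. The basement membrane share was 13% ± 0.289 and 13.6% ± 0.700, with COL4A1 and COL4A5 taking a larger part of it. Fibrillar chains made up 3.49% ± 0.217 and 2.32% ± 0.262, and the beaded filament chains 1.65% ± 0.114 and 0.379% ± 0.0448. Each share is part of a total that was 103 CPM per kilobase in shCtrl and 147 in shAC007128.1, so a share can fall without a fall in RNA. Within the FACIT class COL12A1 went from 7.67% to 5.68%, though its level was 7.93 and 8.21 CPM per kilobase. COL20A1, which was called lower, went from 3.56% to 0.343%. The shares also depend on the length used. Per kilobase of canonical transcript the transmembrane share was 40.6% and 44.6% and the basement membrane share 20.7% and 21.1%. The means differed in the same direction as before. For the basement membrane share the samples of the groups overlapped with either length, so no shift is read from it.

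**Figure D3:**
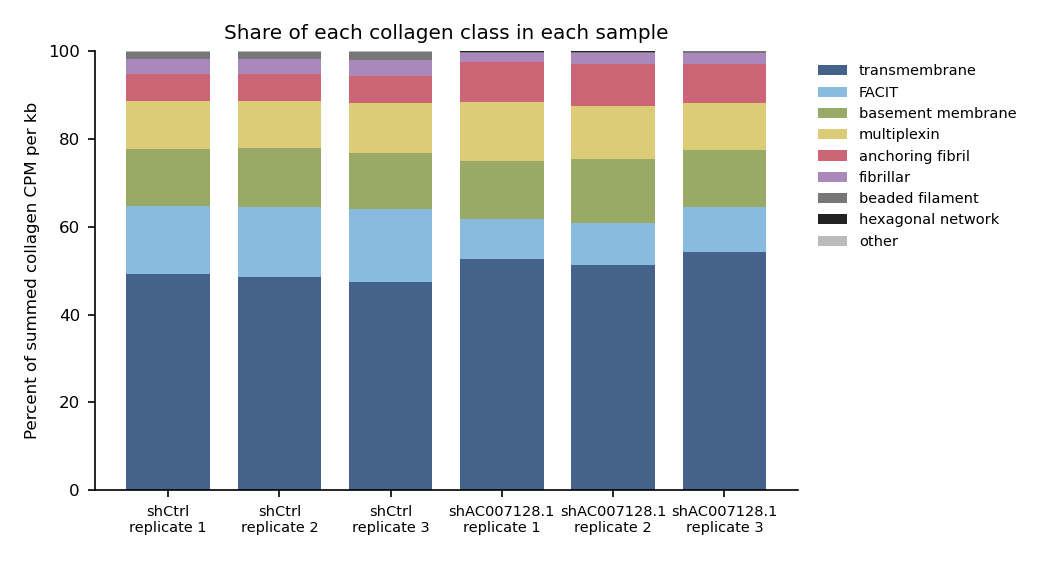
Percent of the summed collagen level, as CPM per kilobase of the union of exons, taken by each collagen class in each of the 6 samples (stacked bars, 1 per sample). The transmembrane class takes 47.5 to 54.2% in every sample, and the FACIT share is 15.4 to 16.6% in the shCtrl samples and 9.17 to 10.2% in the shAC007128.1 samples.

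The modifying enzymes moved in both directions. Lysyl hydroxylases were higher or did not pass, lysyl oxidases were lower or did not pass, and none of the 11 tested rose 2-fold. The count of 0 called higher was the same by edgeR, DESeq2 and limma-voom, with 4 members higher at an unadjusted p under 0.05, while 2 were called lower. P4HA1, the main catalytic subunit of collagen prolyl 4-hydroxylase, was at 49.1, 51.0 and 46.9 CPM in shCtrl and at 38.3, 31.0 and 35.6 CPM in shAC007128.1. It was lower in every shAC007128.1 sample (log2 fold change -0.49, SE 0.10, adjusted p = 0.00773). P4HA2 was at 42.5, 42.8 and 40.3 CPM in shCtrl and at 47.5, 49.3 and 39.7 CPM in shAC007128.1. Its groups overlapped (log2 fold change 0.12, adjusted p = 0.395), though without shAC007128.1 replicate 3 it passed (0.20, adjusted p = 0.0459). The count of P4HA1 over P4HA2 was 1.15, 1.19 and 1.16 in shCtrl and 0.806, 0.628 and 0.896 in shAC007128.1, above 1 in each shCtrl sample and below 1 in each shAC007128.1 sample (exact permutation p = 0.1, adjusted 0.114). P4HA3 had 2 to 5 counts in shCtrl and 8 to 10 counts in shAC007128.1 and was not tested.

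Of the 3 lysyl hydroxylases, PLOD1 and PLOD2 rose. PLOD1, which hydroxylates lysines within the helix, was at 52.1, 52.6 and 48.2 CPM in shCtrl and at 98.6, 90.6 and 77.7 CPM in shAC007128.1. The groups did not overlap (log2 fold change 0.80, SE 0.11, adjusted p = 9.74e-04). PLOD2, which acts on the telopeptides where stable crosslinks form, was at 49.3, 49.2 and 49.9 CPM in shCtrl and at 70.8, 81.9 and 85.2 CPM in shAC007128.1, again with no overlap (log2 fold change 0.68, SE 0.091, adjusted p = 0.00106). PLOD3, which also transfers sugars to hydroxylysine, was at 137, 141 and 132 CPM in shCtrl and at 152, 153 and 127 CPM in shAC007128.1. Its groups overlapped (log2 fold change 0.077, adjusted p = 0.543), and without shAC007128.1 replicate 3 it passed at 0.15 (adjusted p = 0.0448). The log2 ratio of PLOD3 to PLOD1 was lower in all shAC007128.1 samples, by -0.72 on average (exact permutation p = 0.1, adjusted 0.114). That of PLOD2 to PLOD1 differed by -0.12 (exact permutation p = 0.7), and its groups overlapped. SERPINH1, the chaperone HSP47, was at 92.1, 97.4 and 95.0 CPM in shCtrl and at 161, 121 and 123 CPM in shAC007128.1, all higher (log2 fold change 0.51, SE 0.12, adjusted p = 0.0120).

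Of the 5 lysyl oxidases, LOXL1 and LOXL4 fell. LOXL4 was at 26.2, 25.2 and 25.4 CPM in shCtrl and at 9.73, 10.2 and 8.21 CPM in shAC007128.1. The groups were well separated (log2 fold change -1.45, SE 0.12, adjusted p = 1.37e-04), 2.73-fold lower. LOXL1, known for its part in elastic fibers, was at 9.91, 10.1 and 9.93 CPM in shCtrl and at 4.45, 3.79 and 2.77 CPM in shAC007128.1. It too was lower in every sample (log2 fold change -1.44, SE 0.19, adjusted p = 0.00111). Of its exonic bases 9.21% overlap other genes, among them the antisense gene LOXL1-AS1. LOXL1-AS1 was also lower (log2 fold change -0.75, adjusted p = 0.0270).

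LOXL2, linked to basement membrane crosslinking, was at 57.5, 58.7 and 58.8 CPM in shCtrl and at 54.4, 51.8 and 49.3 CPM in shAC007128.1. It lay slightly lower in all shAC007128.1 samples without passing the test (log2 fold change -0.17, adjusted p = 0.115). LOX was at 0.656, 0.696 and 0.472 CPM in shCtrl and at 1.44, 0.801 and 1.34 CPM in shAC007128.1, higher without overlap but just short of the threshold (log2 fold change 0.97, adjusted p = 0.0521). LOXL3 was at 0.383, 0.522 and 2.14 CPM in shCtrl and at 0.374, 0.437 and 0.224 CPM in shAC007128.1, its mean above 1 CPM in shCtrl coming from replicate 3 (log2 fold change -1.55, adjusted p = 0.121), and 25.5% of its exonic bases overlap other genes.

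**Figure D4:**
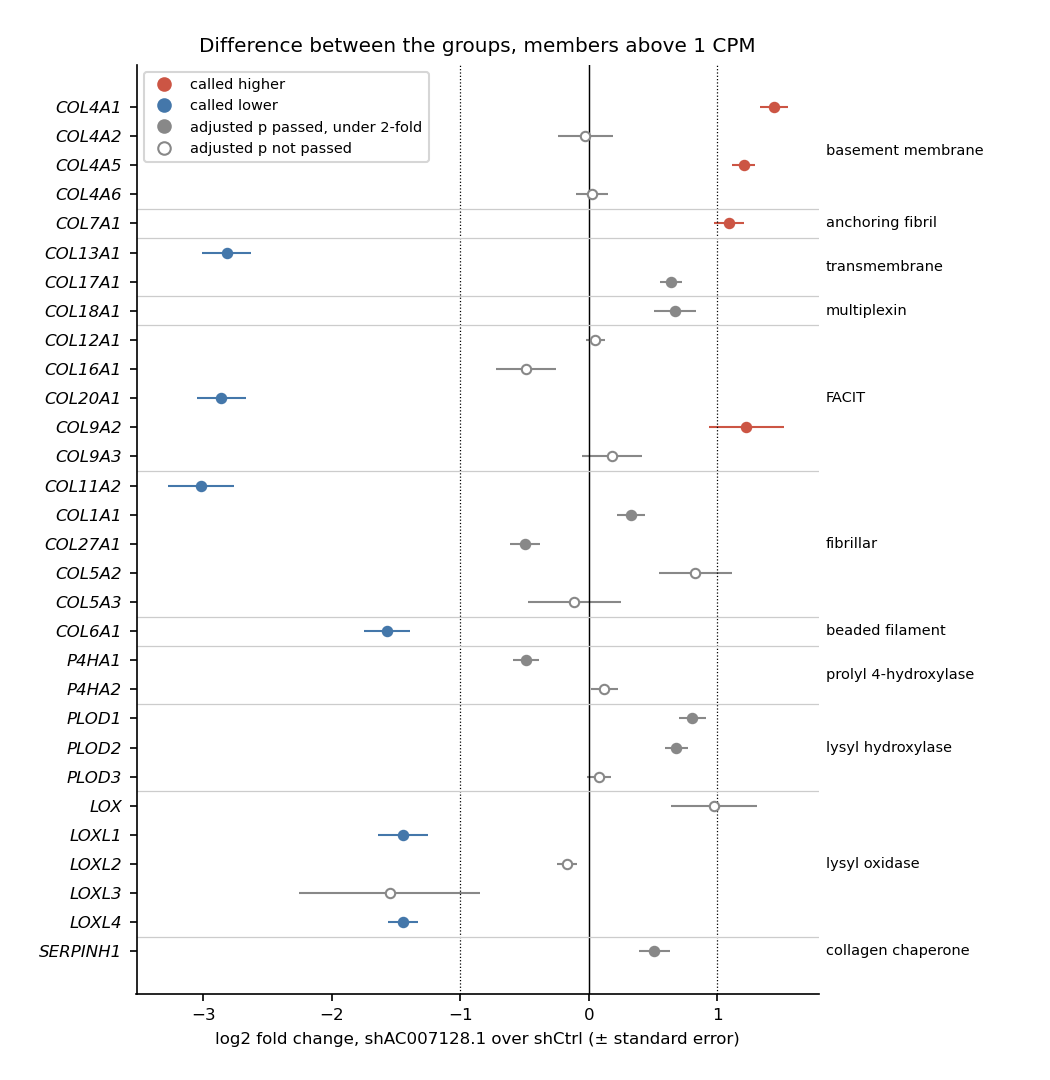
Log2 fold change of shAC007128.1 over shCtrl with its standard error for the 30 members above 1 CPM, grouped by role. Red and blue mark members called higher and lower, filled gray those past the adjusted p but under 2-fold, and open circles those that did not pass. Dotted lines mark a 2-fold difference, and within the basement membrane class COL4A1 and COL4A5 stand past it while COL4A2 and COL4A6 sit near 0.

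Other genes of collagen synthesis and export were counted for comparison, as a list of 28 of which 23 were tested. TLL2 and PCOLCE2 were called higher and MIA2 lower, beside 5.57% of all genes called higher and 10.1% called lower. By the adjusted p alone 3 were higher and 11 lower, beside 21% and 19.8% of all genes. The median log2 fold change was -0.24, beside -0.024 for all genes. TLL2, a protease of the tolloid family, was at 5.47, 6.27 and 4.51 CPM in shCtrl and at 17.2, 15.7 and 12.2 CPM in shAC007128.1 (log2 fold change 1.47, SE 0.19, adjusted p = 8.76e-04). PCOLCE2, an enhancer of procollagen C-proteinase, was at 5.80, 5.27 and 5.22 CPM in shCtrl and at 14.1, 13.4 and 12.5 CPM in shAC007128.1 (log2 fold change 1.30, SE 0.13, adjusted p = 2.80e-04). Neither gene overlapped between the groups. MIA2, whose product cTAGE5 works with TANGO1 in loading collagen at endoplasmic reticulum exit sites, was at 89.6, 89.2 and 87.4 CPM in shCtrl and at 31.8, 29.5 and 40.1 CPM in shAC007128.1. It was lower in every shAC007128.1 sample (log2 fold change -1.39, SE 0.12, adjusted p = 1.85e-04), while MIA3, which encodes TANGO1, did not pass (-0.024, adjusted p = 0.922).

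Among the 11 lower by the adjusted p were, chosen after their values were seen, CRTAP and PPIB of the prolyl 3-hydroxylation complex and P3H4 of the lysyl hydroxylation complex, with log2 fold changes of -0.57 for CRTAP (adjusted p = 9.02e-04), -0.44 for PPIB (adjusted p = 0.0313) and -0.88 for P3H4 (adjusted p = 0.00226). P3H1, the enzyme of the first complex, lay higher in every shAC007128.1 sample without passing (mean 34.1 and 41.6 CPM, log2 fold change 0.29, adjusted p = 0.0561). P4HB, the shared beta subunit of prolyl 4-hydroxylase, was lower by less (-0.25, adjusted p = 0.0239). BMP1, the main procollagen C-proteinase, was higher (0.37, adjusted p = 0.0336). Of 12 collagen receptor genes, 10 tested, none was called by edgeR, DESeq2 or limma-voom in either direction. Over all genes tested edgeR called 15.7%, and 21% were higher by the adjusted p alone. ITGA2 (mean 114 and 178 CPM, log2 fold change 0.64, adjusted p = 0.00196) and ITGB1 (mean 379 and 644 CPM, log2 fold change 0.76, adjusted p = 0.00156), the 2 chains of the integrin that binds collagen on epithelial cells, were higher by the adjusted p, and they were also the only 2 at an unadjusted p under 0.05.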

How the data were processed

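PolyA-selected total RNA of 6 KYSE150 samples (3 shCtrl, 3 shAC007128.1; groups from the labels) was sequenced by the authors as paired-end TruSeq libraries. In the deposited table, the values are estimated counts by Ensembl identifier, whole numbers without normalization, so no rounding was needed. Low values pile up at multiples of 4. Per the labels, CASAVA 1.8 and TopHat2 2.0.6 were used, and the study's methods name the human genome hg38, while the labels list both GRCh38 and mm10. The counting program, gene annotation and strand setting are not given in the sources used here. 60357 of 67140 identifiers (89.9%) were found in GENCODE v44, which gave symbols, coordinates and lengths. No column was left unmapped.

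Counts were tested with edgeR 4.0.16 (glmQLFit and glmQLFTest, TMM, filterByExpr; R 4.3.3), adjusted by Benjamini-Hochberg over 19254 genes, with calls made where the adjusted p did not exceed 0.05 and the log2 fold change was 1 or more in either direction. All 6 samples entered with no covariate. The SE given with a log2 fold change is its size divided by the square root of the quasi-likelihood F statistic. It was derived from the test and not estimated apart from it. The limits follow the study, whose Cuffdiff test needs reads. Log2 ratios of partner genes (2 counts added) were compared by an exact two-sided permutation test. DESeq2 1.42.0, limma-voom (limma 3.58.1), other scalings and filters, transcript lengths, counts divided by 4, a replicate block and leaving out each sample were tried. The script was tested on simulated data with 200 changed genes. Totals ranged from 55764405 to 78610457 counts, and the floor of 3 counts covers counting error only.

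Every member is accounted for. Called members and those with a mean above 1 CPM are named with all samples, and genes called in the other lists are named. Members and lists were chosen with earlier results of these data known. RefSeq promoters (GRCh38.p14, 250 bases before and 50 after each start) matched 41 of 55 members.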

Additional observations from a re-analysis of the deposited data

How the results depend on the processing

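The same 4 members were called higher in every fit, with COL5A2, COL24A1 or LOX added when a single sample was left out. Between 6 and 10 were called lower. COL10A1, COL11A1 and COL6A3 were lost with at least 10 counts in every sample or with counts divided by 4, leaving 6, COL10A1 or COL11A1 also when single samples were left out, COL11A1 also by limma-voom, and COL26A1 or COL5A1 was added in some fits. With no limit on the fold change, 10 members were higher, over all genes 4041 were higher and 3820 lower, of the other synthesis genes 11 were lower, and 2 receptor genes were higher. The other synthesis genes called lower were 2 with counts divided by 4, with library size only, by limma-voom and by DESeq2, and 1 to 3 when 1 sample was left out.

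Signs near 0 turned. With library size only, which moved the median of all genes to -0.098, COL12A1 was -0.024 and COL4A6 -0.050. COL4A6 was -0.020 with no filter and -0.010 with at least 10 counts in every sample. Leaving out 1 sample gave -0.0074 to 0.080 for COL12A1, -0.25 to 0.19 for COL4A2, -0.066 to 0.12 for COL4A6, -0.57 to 0.15 for COL5A3, -0.040 to 0.41 for COL9A3 and -0.27 to 0.036 for the log2 ratio of PLOD2 to PLOD1. The cause was not tested. The adjusted p of COL1A1 exceeded 0.05 in 10 of 14 fits, up to 0.152, and LOXL2 passed with library size only (-0.24, adjusted p = 0.0404). The anchoring fibril share changed by 2.65 percentage points with the longest transcript and 2.59 with the canonical transcript, a length chosen after the data were seen, against 3.02 with the union of exons. The beaded filament share changed by -1.14 and -1.11 points, against -1.27.

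Samples with the same replicate number did not deviate together (correlations 0.045, -0.0498 and -0.0555), so no pairing by number was seen. With 3 samples per group these values cannot decide whether same-numbered samples were prepared together. With a replicate block 4 members were called higher and 8 lower, COL11A1 being lost (-2.14, adjusted p = 0.0775), COL1A1 did not pass (adjusted p = 0.0971), and AC007128.1 was at -0.82 (adjusted p = 0.363). By exact permutation the 8 log2 ratios could reach p = 0.25 at best with pairs and 0.2 with 1 sample left out, so these fits say nothing of their stability. Depth limits members under 1 CPM, where 3 counts are 0.0373 to 0.0546 CPM.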
